A study of Mus musculus with 9 samples.

Results

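The E2F transcription factors and the pocket proteins that bind them were followed through an RNA-seq experiment on mouse neural stem cells in which the histone demethylase gene Phf2 was targeted by short hairpin RNAs. The members were 10 genes taken by symbol from the 54232 genes of the deposited table, whatever their values: E2f1, E2f2, E2f3, E2f4, E2f5, E2f7, E2f8, Rb1, Rbl1 and Rbl2. All 10 passed the filter on low counts, as did 17602 of the 54232 genes. Primary embryonic cultures, labelled as subventricular zone of the brain and grown on laminin with FGF and EGF, received the Phf2 hairpin sh900, the Phf2 hairpin sh902 or the non-targeting hairpin shNT, and RNA was taken 3 days later. Each hairpin had 3 libraries, 1 with no date in its title, 1 dated 30 August and 1 dated 3 September. What the dates mark is not stated, and the labels do not say whether the libraries of a group go back to separate cultures or animals; a p-value here reflects only how these libraries vary, and that variation may be technical. No selection of cells that took up a hairpin is described in the labels.

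E2F proteins bind the promoters of genes needed for DNA synthesis and cell division. E2F1, E2F2 and E2F3 mainly activate them, E2F4 and E2F5 mainly repress them in complexes with pocket proteins, and E2F7 and E2F8 are atypical repressors that bind DNA without a DP partner. The pocket proteins pRB (Rb1), p107 (Rbl1) and p130 (Rbl2) hold E2Fs in check until cyclin-dependent kinases phosphorylate them, and p107 or p130 with E2F4 or E2F5 and the MuvB core form the DREAM complex, which silences cell cycle genes in resting cells. E2f1, E2f2, E2f7, E2f8 and Rbl1 are themselves targets of E2F and are mostly transcribed in dividing cells, whereas p130 is the pocket protein of quiescent cells. Neural stem cells of the subventricular zone pass between quiescence and division.

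Promoter sequences were taken from RefSeq windows on GRCm38.p6, which cover 250 bases before and 50 bases after an annotated transcription start. There were 9 windows for 7 of the 10 members, with 2 each for E2f2 and E2f3; E2f4, E2f5 and Rb1 had none. Each window was searched on both strands for the E2F words TTTCCCGC, TTTCGCGC, TTTGCCGC and TTTGGCGC, for TTTGAA (the core of the CHR element, which DREAM binds) and for CCAAT (the NF-Y box); none of these words contains another. An E2F word stood in 4 of the 9 windows (1 each of E2f2, E2f3, E2f7 and Rbl1), against 2.26% of all 32851 windows. TTTGAA was found in 4 of the 9 (1 each of E2f2, E2f3, E2f8 and Rbl2) against 17.9% of all windows, and CCAAT in 5 of the 9 (E2f2 in both, and 1 each of E2f3, E2f7 and E2f8) against 37.4%. The TTTGAA word of E2f2 stood in its window at chr4:136180532-136180831, which is also 1 of its windows with CCAAT. The start of that window lies inside the annotated E2f2 gene, and 46 of its 250 upstream bases fall in an E2f2 exon. A match is a description of letters and not of a bound site. The sequences shown are those of 4 members whose highest library was the 30 August control and whose lowest was the 3 September control, and of Rbl2, for which this was not so. Capitals mark the words, which read in reverse complement where they lie on the other strand; E2f2 is shown only around its E2F word, which begins 40 bases after the start.
E2f2, 30 bases at chr4:136172294-136172323, plus strand: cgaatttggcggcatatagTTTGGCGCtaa
E2f7, 250 bases before the start at chr10:110745189-110745438, plus strand: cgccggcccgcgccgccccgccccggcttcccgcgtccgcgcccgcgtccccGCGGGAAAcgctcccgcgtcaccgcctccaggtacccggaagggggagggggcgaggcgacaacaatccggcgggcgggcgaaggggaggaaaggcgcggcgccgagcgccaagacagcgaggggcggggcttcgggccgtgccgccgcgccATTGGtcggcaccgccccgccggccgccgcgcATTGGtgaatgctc
E2f8, 250 bases before the start at chr7:48881597-48881846, minus strand: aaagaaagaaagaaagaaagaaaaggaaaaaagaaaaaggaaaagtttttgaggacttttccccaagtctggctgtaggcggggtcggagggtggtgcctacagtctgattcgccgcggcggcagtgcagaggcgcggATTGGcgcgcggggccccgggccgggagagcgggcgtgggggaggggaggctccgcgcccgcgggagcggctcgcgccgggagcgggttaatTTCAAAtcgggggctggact
Rbl1, 250 bases before the start at chr2:157204535-157204784, minus strand: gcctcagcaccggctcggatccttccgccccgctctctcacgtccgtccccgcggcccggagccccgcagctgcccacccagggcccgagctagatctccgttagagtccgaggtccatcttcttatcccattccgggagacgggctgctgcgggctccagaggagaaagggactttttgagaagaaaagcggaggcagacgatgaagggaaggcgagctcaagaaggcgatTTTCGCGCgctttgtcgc
Rbl2, 250 bases before the start at chr8:91069807-91070056, plus strand: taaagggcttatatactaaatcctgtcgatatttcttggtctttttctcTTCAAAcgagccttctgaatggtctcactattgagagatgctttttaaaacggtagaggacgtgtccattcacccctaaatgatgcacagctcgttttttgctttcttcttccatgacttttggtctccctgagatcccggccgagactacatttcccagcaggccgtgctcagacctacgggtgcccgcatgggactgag
The E2F word of Rbl1 began 18 bases before its start and that of E2f7 198 bases before its start, while TTTGAA lay 20 bases before the start of E2f8 and 201 bases before that of Rbl2. The E2f1 window held none of the words; all 250 of its upstream bases fall in an annotated E2f1 exon, so the RefSeq start used there lies inside the gene of the annotation.

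The 9 libraries held between 23212472 and 32392496 estimated counts each. Levels are in CPM, that is counts scaled to a common library size with TMM factors. Phf2 itself stood at 14.9 to 25.5 CPM in sh900 libraries and 17.0 to 28.1 CPM in sh902 libraries, against 48.7 to 56.3 CPM in shNT libraries. Its mean log2 difference was -1.28 ± 0.20 (SE), which missed the threshold without a block (edgeR quasi-likelihood test, adjusted p = 0.182) and passed it when the date label was blocked (a replicate block; -1.32 ± 0.16, adjusted p = 0.00519). Against the shNT library of the same label, Phf2 at 30 August was 0.283 times the control with sh900 and 0.321 times with sh902. At 3 September it was 0.524 and 0.577 times, and in the undated libraries 0.352 and 0.444 times. All 10 neural stem cell markers, among them Nes and Sox2, were at 1 CPM or more in every library. The 6 astrocyte markers were too, and their summed level was 355 to 3244 CPM in hairpin libraries and 348 to 6023 CPM in shNT libraries. Of 6 microglia markers 5 stayed under 1 CPM in every library and C1qa was at 0 throughout; the fibroblast or pericyte list summed to at most 18.6 CPM in hairpin libraries and 27.8 CPM in shNT libraries.

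Per kilobase of exon, the repressor genes E2f5 and E2f4 and the pocket protein gene Rb1 were the most abundant of the family, and the atypical repressors E2f8 and E2f7 the least. Medians over the 9 libraries were 20.2 CPM per kilobase for E2f5, 13.9 for E2f4 and 11.8 for Rb1, then 7.46 for Rbl2, 7.36 for E2f3, 4.87 for Rbl1, 4.05 for E2f1, 2.40 for E2f2, 1.63 for E2f8 and 0.888 for E2f7. Neighbours in this order overlapped across libraries in every case, and Rbl2 and E2f3 (mean 7.64 ± 1.17 and 8.03 ± 2.26 CPM per kilobase, SD, n = 9) cannot be ranked. Divided by coding length instead, the same medians put E2f3 at rank 2, with E2f5 still highest and E2f7 lowest. In the 9 libraries E2f5 stayed between 13.5 and 32.7 CPM per kilobase, whereas E2f7 ran from 0.203 to 3.70.

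**Figure D1:**
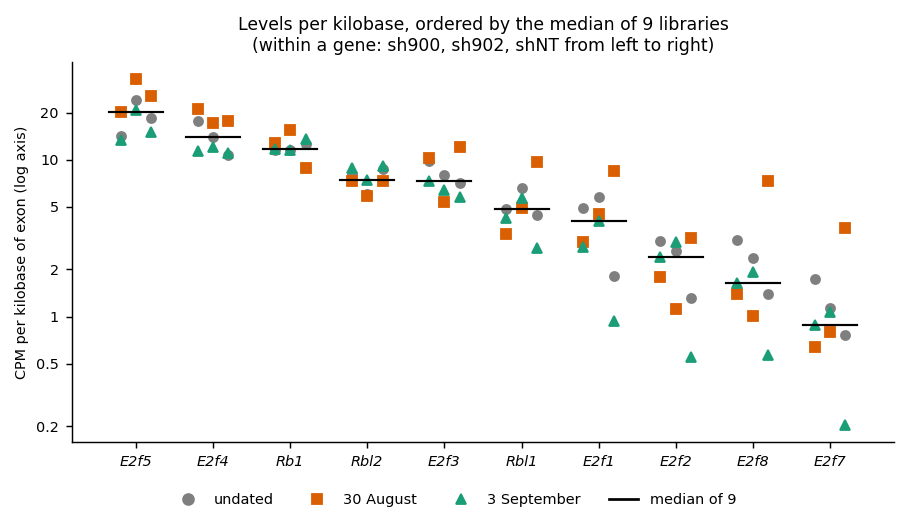
CPM per kilobase of merged exon for each library on a log axis, genes ordered by the median of 9 libraries (black line), with sh900, sh902 and shNT points from left to right within a gene and the marker giving the date label. The order falls from E2f5 (median 20.2) to E2f7 (median 0.888), and the points of E2f7, E2f8, E2f2 and E2f1 spread most widely in the shNT column.

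The activator E2f1 had 15.5, 9.47 and 8.73 CPM in the sh900 libraries (undated, 30 August and 3 September, the order used throughout) and 18.2, 14.3 and 12.8 CPM in the matching sh902 libraries, against 5.70, 26.8 and 2.98 CPM in the shNT libraries of those labels. E2f2, another activator, had 14.9, 8.68 and 11.7 CPM with sh900 and 12.8, 5.43 and 14.6 CPM with sh902, against 6.39, 15.5 and 2.71 CPM with shNT. For both genes all 6 hairpin libraries lay inside the range of the 3 shNT libraries, whose 30 August library was the highest of the 9 and whose 3 September library was the lowest. The remaining activator, E2f3, was flatter, at 53.5, 55.6 and 40.0 CPM with sh900 and 43.2, 29.1 and 35.1 CPM with sh902, against 38.4, 65.8 and 31.5 CPM with shNT. Its 30 August shNT library was again the highest, while its lowest was the 30 August sh902 library.

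The atypical repressors showed the widest swing. E2f7 had 15.6, 5.74 and 8.0 CPM in the sh900 libraries and 10.2, 7.14 and 9.67 CPM in the sh902 libraries, against 6.91, 33.3 and 1.83 CPM in the shNT libraries. E2f8 had 16.7, 7.61 and 8.88 CPM with sh900 and 12.9, 5.51 and 10.5 CPM with sh902, against 7.64, 39.8 and 3.09 CPM with shNT. Again all 6 hairpin libraries lay within the shNT range, between a high 30 August and a low 3 September control. The lowest of these values rested on 48 counts for E2f7 and 81 for E2f8, in the 3 September shNT library.

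Among the pocket protein genes, Rbl1 had the same highest and lowest libraries as E2f1, E2f2, E2f7 and E2f8, over a narrower range. It had 29.2, 20.3 and 25.3 CPM with sh900 and 39.7, 29.7 and 34.1 CPM with sh902, against 26.6, 58.2 and 16.4 CPM with shNT, so that the hairpin libraries again lay between the dated controls. Rb1 went the other way, with 69.2, 76.8 and 70.8 CPM with sh900 and 69.1, 92.8 and 69.7 CPM with sh902, against 76.2, 53.2 and 81.9 CPM with shNT: its lowest library of the 9 was the 30 August control. Rbl2 had 61.4, 55.3 and 66.5 CPM with sh900 and 45.6, 44.4 and 56.3 CPM with sh902, against 65.8, 55.4 and 69.1 CPM with shNT. The sh902 values of Rbl2 were the lowest of their label each time, and its sh900 values were 0.934, 0.999 and 0.963 times the control of their label.

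**Figure D2:**
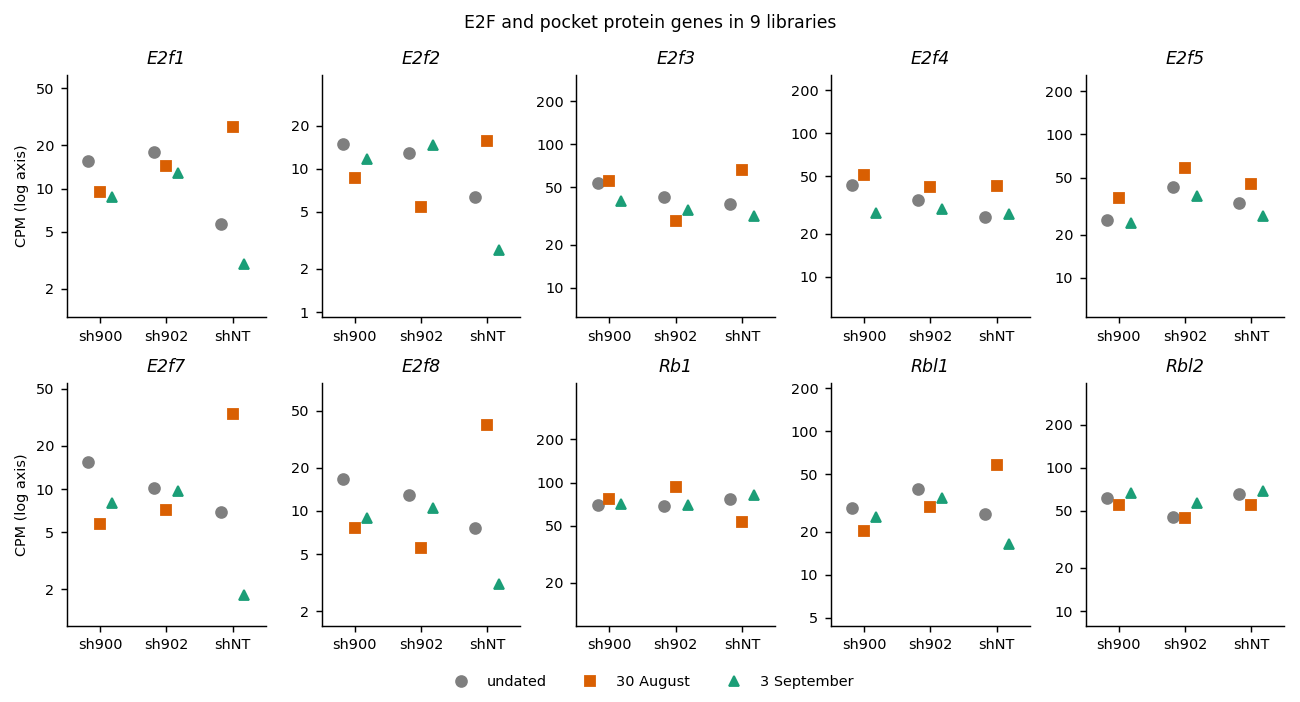
CPM on a log axis in each of the 9 libraries, 1 panel per gene spanning the same ratio from bottom to top, with sh900, sh902 and shNT from left to right and the marker giving the date label. In E2f1, E2f2, E2f7, E2f8 and Rbl1 the 30 August shNT library is highest, the 3 September shNT library lowest and the 6 hairpin libraries lie between them, while Rb1 and Rbl2 stay nearly level.

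Across all 9 libraries the family therefore fell into a variable and a steady set, a division made after the values were seen. The SD of log2 CPM was larger for E2f7 than for 91.1% of the 17602 genes, for E2f8 than for 89.0%, for E2f1 than for 86.1%, for E2f2 than for 82.3% and for Rbl1 than for 59.7%. For E2f5, E2f3, E2f4, Rbl2 and Rb1 the corresponding shares were 46.4%, 42.4%, 37.5%, 15.4% and 13.8%. Within the controls alone, E2f7 in the 3 September library was 0.055 times its level in the 30 August library, E2f8 0.0776 times, E2f1 0.111 times, E2f2 0.175 times and Rbl1 0.281 times, whereas Rb1 was 1.54 times and Rbl2 1.25 times as high. In bulk RNA, fewer cells of a type and less RNA per cell cannot be told apart.

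Averaged over both hairpins and the 3 labels, no member passed the test against shNT. Without a block edgeR called 0 of the 10 members, where it called 0% of 17602 genes; 0 members but 2809 genes had an unadjusted p under 0.05, and DESeq2 (755 genes called) and limma-voom (0 genes called) also called 0 members. With the replicate block the count stayed at 0 members, also at an unadjusted p under 0.05, while 11.7% of all genes were called. Without the block, log2 differences from shNT were 0.14 ± 0.60 (SE) for E2f1, 0.47 ± 0.53 for E2f2, -0.10 ± 0.25 for E2f3, 0.24 ± 0.25 for E2f4 and 0.05 ± 0.23 for E2f5. They were -0.58 ± 0.72 for E2f7, -0.71 ± 0.69 for E2f8, 0.08 ± 0.17 for Rb1, -0.20 ± 0.35 for Rbl1 and -0.22 ± 0.13 for Rbl2. The median over the members was -0.03, as it was over all genes. The differences of E2f7 and E2f8 changed sign in limma-voom, at 0.27 and 0.02.

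This average rested on the 30 August control. With that 1 library left out of the blocked fit, 5 members were called higher with the hairpins, against 19.9% of 18264 genes called in either direction. E2f1 then stood at a log2 difference of 1.69 ± 0.19 (edgeR, adjusted p = 0.00186), E2f2 at 1.65 ± 0.33 (adjusted p = 0.0133), E2f8 at 1.28 ± 0.26 (adjusted p = 0.0125), E2f7 at 1.49 ± 0.36 (adjusted p = 0.0256) and Rbl1 at 0.60 ± 0.15 (adjusted p = 0.0307). Without the block, leaving out the same library gave 0 calls among the members and a lowest adjusted p of 0.0872, for E2f1. That fit called 1 of 18264 genes, and 4942 genes, 2 members among them, had an unadjusted p under 0.05. Leaving out any other single library gave 0 calls among the members, with the block or without it. Over all genes these fits called 257 to 2476 with the block and 0 or 1 without it.

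Each hairpin library was then set against the shNT library of its own date label. Both hairpins of a label share that control, so their ratios are not independent. In the 3 September set E2f7 was 4.37 times the control with sh900 and 5.28 times with sh902; in the 30 August set it was 0.173 times and 0.214 times. E2f8 was 2.87 and 3.40 times the control at 3 September, and 0.191 and 0.138 times at 30 August, in the same order of hairpins. E2f2 was 4.32 and 5.39 times at 3 September and 0.560 and 0.350 times at 30 August. E2f1, E2f3 and Rbl1 had the same signs, so 6 of the 10 members were above the control with both hairpins at 3 September and below it with both at 30 August. In the undated set these 6 were above the control with both hairpins, by 1.10 times (Rbl1, sh900) to 3.19 times (E2f1, sh902). Rb1 had the opposite signs in all 3 sets, and Rbl2 alone lay on 1 side of the control, below it, in 6 of 6 hairpin libraries. How many of all genes had such signs, or lay inside the shNT range in all 6 hairpin libraries, was not counted. These counts therefore describe the members only.

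**Figure D3:**
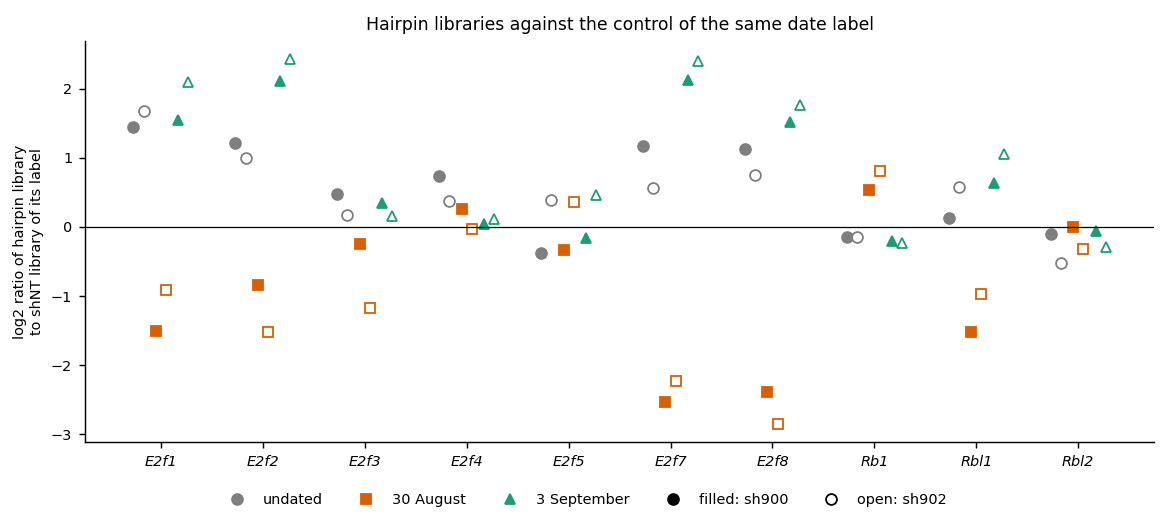
Log2 ratio of each hairpin library to the shNT library of its own date label, with filled markers for sh900 and open ones for sh902 and the marker shape giving the label. The E2f7 ratios lie near 2 at 3 September and under -2 at 30 August, and the Rbl2 ratios lie at or below 0 throughout.

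The difference between the dated sets was tested in a model with an interaction of hairpin and date label, in which both Phf2 hairpins counted as 1 condition. E2f7, at chr10:110745439-110787384, had a hairpin effect that was 4.64 ± 0.56 (SE, log2) higher at 3 September than at 30 August (edgeR, adjusted p = 0.0211), and E2f8, at chr7:48866429-48881596, one that was 4.25 ± 0.51 higher (adjusted p = 0.0209). These 2 of 10 members were called where 1.39% of all genes were called in either direction and 1.37% with a higher effect at 3 September. E2f2 just missed the threshold at 3.41 ± 0.56 (adjusted p = 0.0502), E2f1 stood at 3.02 ± 0.56 (adjusted p = 0.0797) and Rbl1 at 2.08 ± 0.51 (adjusted p = 0.197). Rb1 had a negative difference of -0.89 ± 0.32 (adjusted p = 0.504). E2f3, E2f5, E2f4 and Rbl2 had 0.89 ± 0.56, 0.12 ± 0.66, -0.04 ± 0.37 and -0.02 ± 0.40. The median over the members was 1.48, against -0.05 over all genes. DESeq2 called E2f1, E2f2, E2f7, E2f8 and Rbl1 in the same model, where it called 3.39% of all genes. For Phf2 itself the difference between the dated sets was 0.87 ± 0.36 (edgeR, adjusted p = 0.627).

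The residual spread in that model comes only from sh900 against sh902 within a label, so each lone control is assumed to vary like the hairpin libraries. Without the 3 September sh902 library edgeR called 0 of 18272 genes (962 at an unadjusted p under 0.05, 5 members among them). Without the 3 September sh900 library it called 144 of 18205 genes and 0 members. Without the 30 August sh900 library it called 114 of 18271 genes, E2f8 among them, and left E2f7 at an adjusted p of 0.0506. The log2 difference of E2f7 stayed between 4.56 and 4.89, and that of E2f8 between 4.12 and 4.57, whichever hairpin library was left out. Marker sums differed between these libraries too. The 6 astrocyte markers summed to 3244 CPM with sh900, 2246 CPM with sh902 and 6023 CPM with shNT at 3 September, and to 355, 363 and 348 CPM at 30 August. They were thus below the control with both hairpins at 3 September, where E2f7 and E2f8 were above it, and level with the control at 30 August, where E2f7 and E2f8 were below it. The 6 neuron markers, of which 3 were at 1 CPM or more in every library, summed to 1089, 864.5 and 1931 CPM with sh900, sh902 and shNT at 3 September and to 613, 475 and 691.5 CPM at 30 August. The 10 neural stem cell markers summed to 8275, 7183 and 6626 CPM at 3 September and to 13660, 10200 and 7776 CPM at 30 August, above the control with both hairpins in each set. The fibroblast or pericyte list summed to 18.6, 13.9 and 27.8 CPM in the 3 September sh900, sh902 and shNT libraries and to 1.35, 1.37 and 0.923 CPM in those of 30 August. The 7 oligodendrocyte lineage markers summed to 2240, 2006 and 2219 CPM with sh900, sh902 and shNT at 3 September. At 30 August they summed to 3094, 1271 and 2981 CPM. The part of these cell types in the E2F differences was not tested.

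**Figure D4:**
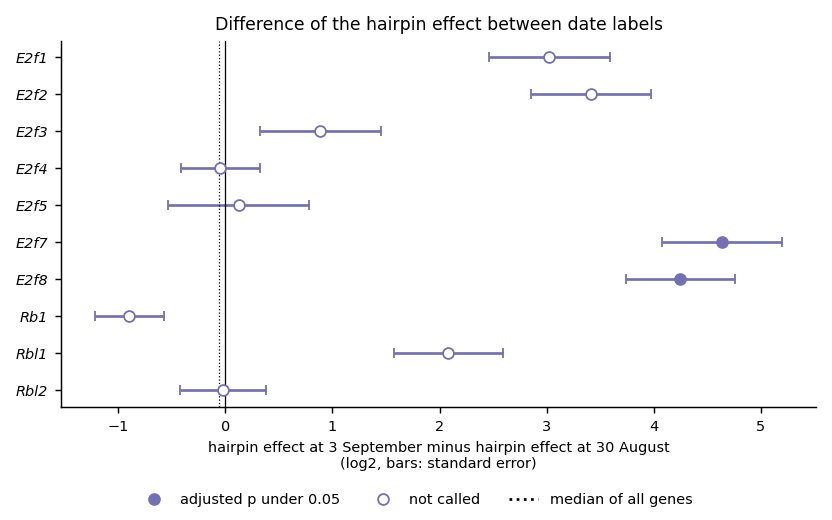
Hairpin effect at 3 September minus hairpin effect at 30 August for each member on a log2 scale, with bars for the standard error, filled points for an adjusted p under 0.05 and a dotted line at the median of all genes (-0.05). E2f7 (4.64) and E2f8 (4.25) are filled, E2f2, E2f1 and Rbl1 lie between 2.08 and 3.41, and E2f4, E2f5 and Rbl2 lie near 0.

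Between the 2 Phf2 hairpins E2f5 was the 1 member called, and only with the replicate block. E2f5, which encodes a repressor that binds p130, lies at chr3:14578641-14606309 and had 25.3, 36.0 and 24.0 CPM in the sh900 libraries, 43.1, 58.2 and 37.0 CPM in the sh902 libraries, and 33.0, 45.3 and 26.9 CPM in the shNT libraries. The sh900 and sh902 values of E2f5 did not overlap, and in each of the 3 labels the control lay between the hairpins. Rbl1 was the other member whose sh900 and sh902 values did not overlap, so 2 of 10 did not, against 22.5% of all 17602 genes; its log2 difference of sh900 from sh902 was -0.46 ± 0.42 with the block (adjusted p = 0.571). The log2 difference of sh900 from sh902 was -0.70 ± 0.26 (edgeR, adjusted p = 0.264), and with the replicate block -0.69 ± 0.12 (adjusted p = 0.0284). E2f5 was called where 4.22% of all genes were called; without the block 0 members and 0% of genes were called, E2f5 being the 1 member with an unadjusted p under 0.05, among 2532 genes. Leaving out any 1 hairpin library ended the call of the blocked fit, with adjusted p values of 0.0598 to 0.199. Over all genes these fits called between 0 and 313, and the log2 difference of E2f5 stayed between -0.76 and -0.65. Against shNT with the block, E2f5 differed by 0.40 ± 0.12 with sh902 (adjusted p = 0.0733) and by -0.29 ± 0.12 with sh900 (adjusted p = 0.167), neither past the threshold. These comparisons share the control libraries.

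Rbl2, which encodes p130, lies at chr8:91070057-91123844 and differed from shNT by -0.38 ± 0.16 with sh902 (edgeR, adjusted p = 0.297), and by -0.38 ± 0.12 with the block (adjusted p = 0.0778). With sh900 the difference was -0.05 ± 0.15 (adjusted p = 0.876), and between sh900 and sh902 it was 0.32 ± 0.16 (adjusted p = 0.392). Rbl2 was the 1 member with an unadjusted p under 0.05 in the comparison of sh902 with shNT, among 2776 such genes. In the single-hairpin comparisons 0 members were called with or without the block, where 0% of genes were called without it and with it 8.85% for sh900 and 10.5% for sh902. At an unadjusted p under 0.05 the blocked fits held 1 member for sh900 (E2f5) and 2 for sh902 (E2f5 and Rbl2). Of the other steady members, E2f4 had 43.4, 51.6 and 28.0 CPM with sh900 and 34.0, 42.0 and 29.5 CPM with sh902, against 26.1, 43.1 and 27.2 CPM with shNT. All 3 groups of E2f4 overlapped, with the 3 September libraries low in each.

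Ratios of members within a library are free of scaling between libraries; they were picked after the levels were seen and were not tested. The ratio of E2f4 to E2f5 CPM was 1.72, 1.43 and 1.17 in the sh900 libraries and 0.790, 0.722 and 0.796 in the sh902 libraries, against 0.792, 0.951 and 1.01 in the shNT libraries. Every sh900 library thus lay above every library of the other 2 groups. How often ratios of other gene pairs separate in this way was not counted. For E2f1 over E2f4 the groups overlapped, at 0.183 to 0.357 with sh900, 0.339 to 0.534 with sh902 and 0.109 to 0.621 with shNT. The ratio of Rbl1 to Rbl2, the pocket protein genes linked to dividing and to resting cells, was 0.475, 0.367 and 0.381 with sh900 and 0.871, 0.667 and 0.605 with sh902, against 0.404, 1.05 and 0.237 with shNT. It was higher with sh902 than with sh900 under each label, and the controls spanned both.

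Tfdp1 and Tfdp2 encode the DP proteins with which E2F1 to E2F6 dimerize, and E2f6 encodes a repressor that does not bind pocket proteins. In edgeR none of the 3 was called in the mean of both hairpins (Tfdp1 -0.30 ± 0.34, Tfdp2 -0.07 ± 0.20, E2f6 0.17 ± 0.22, without the block) or in the interaction (1.46 ± 0.64, 0.83 ± 0.59 and 0.44 ± 0.58), except that Tfdp1 was called in the interaction with no filter on low counts (1.61 ± 0.45, adjusted p = 0.0231). Tfdp1 had 125, 118 and 94.6 CPM with sh900 and 93.9, 55.4 and 86.7 CPM with sh902, against 72.4, 199.5 and 76.2 CPM with shNT, and so shared the high 30 August control of the variable members. E2f6 was above the control of its label in 5 of 6 hairpin libraries.

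Lists of regulators, cofactors and targets, assembled with earlier results of these data known, were counted in the same fits. Every listed gene was tested. Of 14 G1 kinase genes and inhibitors that act upstream of the pocket proteins, 0 were called without the block (7 at an unadjusted p under 0.05). With the block 5 were called (3 higher and 2 lower with the hairpins), and 8 had an unadjusted p under 0.05. In the blocked fit 11.7% of all genes were called and 29.1% had an unadjusted p under 0.05, which is the background for each list counted there. Without the block these shares were 0% and 16%. Cdkn1c, which encodes the kinase inhibitor p57, fell with a log2 difference of -2.67 ± 0.35 (edgeR with the block, adjusted p = 0.00667). Cdkn1a, which encodes the inhibitor p21, rose by 1.61 ± 0.22 (adjusted p = 0.00731), and the D-type cyclin genes Ccnd3 and Ccnd2 rose by 0.83 ± 0.17 (adjusted p = 0.023) and 2.42 ± 0.49 (adjusted p = 0.0289). The remaining called gene, Cdk6, a partner of D-type cyclins that the naming rule left out, fell by 0.66 ± 0.17 (adjusted p = 0.042). Of 8 MuvB and MYB genes, Mybl1, which encodes A-MYB, was the 1 called (1.04 ± 0.16, adjusted p = 0.00985), a share near that of all genes, while 0 of 16 corepressor genes, 0 of 40 G1/S targets of E2F and 0 of 26 G2/M targets of DREAM were called (1, 2 and 0 at an unadjusted p under 0.05). With each of the 9 libraries left out of the blocked fit in turn, Cdkn1c was called 9 times, Cdkn1a and Mybl1 8 times each, Ccnd3 5 times, Ccnd2 2 times and Cdk6 1 time; the library behind the loss for Cdkn1a and Mybl1 was the undated control (adjusted p = 0.0541 and 0.074). No call of these 6 genes held in the dated libraries alone, where the lowest adjusted p was 0.116. In that fit 1 of all 17677 genes was called, and in the blocked fit without the undated control 257 of 18061.

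Target genes were also counted in the interaction, where 1.37% of all genes were called with a higher hairpin effect at 3 September than at 30 August. Of the 40 G1/S targets all 40 had a difference above 0, with a list median of 3.29; 21 were called higher and 0 lower. The called genes included Clspn (4.75 ± 0.37, edgeR, adjusted p = 0.013), a replication checkpoint adaptor, the S phase cyclin gene Ccna2 (4.72 ± 0.46, adjusted p = 0.0145), the replicative helicase gene Mcm3 (4.50 ± 0.46, adjusted p = 0.0164) and the chromatin assembly gene Chaf1a (3.29 ± 0.38, adjusted p = 0.0197). Of the 26 G2/M targets 25 were called higher, with a median of 4.51; Cdc20 (5.06 ± 0.42), Nuf2 (4.87 ± 0.40), Nek2 (4.36 ± 0.35) and the kinase gene Aurka (4.34 ± 0.37) each had an adjusted p of 0.013. The MuvB partners Foxm1 (4.22 ± 0.39, adjusted p = 0.013) and Mybl2 (4.25 ± 0.59, adjusted p = 0.0311), which drive mitotic genes, were 2 of 8 called. Ccne1, the cyclin E gene, was 1 of 14 upstream genes (2.92 ± 0.41, adjusted p = 0.032), and the maintenance methyltransferase gene Dnmt1 1 of 16 corepressors (2.15 ± 0.31, adjusted p = 0.0351). Ccne1 is in the G1/S list too and is already among its 21 called genes. Leaving out the 3 September sh902 library ended all these calls, and leaving out any 1 hairpin library ended those of Ccne1 and Dnmt1. With each hairpin library left out in turn, Mybl2 was called in 3 of 6 fits. Ccne1 and Dnmt1 aside, the other genes named here were called in 5 of 6. The G1/S count became 9 without the 30 August sh900 library, where 114 of 18271 genes were called. It became 12 without the 3 September sh900 library, where 144 of 18205 genes were called.

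By label, the median log2 ratio of the 40 G1/S targets to the control was 1.46 with sh900 and 1.95 with sh902 at 3 September, and -1.64 and -1.34 at 30 August. For the 26 G2/M targets it was 2.49 and 2.92 at 3 September and -1.99 and -1.62 at 30 August. In the undated set the G1/S medians were 0.91 with sh900 and 1.16 with sh902 and the G2/M medians 0.40 and 0.55. Medians over all genes stayed between -0.02 and 0.03 in the 6 hairpin libraries. The corepressor list stayed between -0.41 and 0.16.

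**Figure D5:**
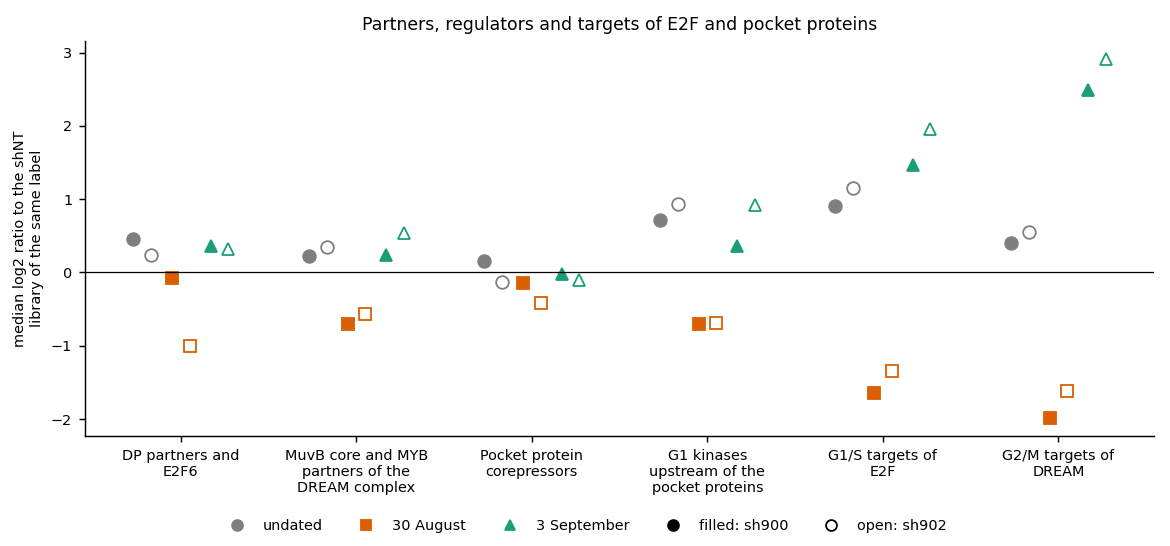
Median log2 ratio to the shNT library of the same date label for 6 gene lists, with filled markers for sh900, open ones for sh902 and the marker shape giving the label. G1/S and G2/M targets lie above 1 at 3 September and below -1 at 30 August, and the corepressors lie between -0.41 and 0.16.

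For 8 members the 3 other genes with the nearest pattern were found among 10841 genes at a mean of 5 CPM or more, by the root mean square difference of centred log2 CPM over the 9 libraries. These distances describe the same 9 libraries and carry no test. Nearest to E2f7 were Clspn (0.238), Esco2 (0.241) and Brip1 (0.255), and nearest to E2f8 were Hirip3 (0.263), Clspn (0.277) and Tedc1 (0.293). E2f1 lay nearest to Hells (0.127), Fam111a (0.171) and Mcm4 (0.196), E2f2 to Wee1 (0.275), Eme1 (0.295) and Dbf4 (0.304), and Rbl1 to Gins3 (0.104), Pola2 (0.107) and Mtbp (0.108). Rb1 lay nearest to Jmy (0.0677), Pramef8 (0.0725) and Zbtb49 (0.0794), Rbl2 to Yeats2 (0.0517), Chd6 (0.0695) and Zmym3 (0.0754), and E2f5 to Irak1bp1 (0.0667), Nthl1 (0.094) and Armcx2 (0.0947). Flat genes have small distances to many others, so distances compare only within a member. Among the members E2f7 and E2f8 were each other's nearest (0.276), as were E2f3 and E2f4 (0.321) and Rb1 and Rbl2 (0.313). E2f1 was nearest to E2f7 (0.458), E2f2 to E2f8 (0.504) and E2f5 to E2f4 (0.406). Rbl1 was nearest to E2f5 (0.447), a steady member, and not to one of the variable members with which its highest and lowest libraries placed it.

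Exons of some members overlap genes on the opposite strand. Whether the counting used strand is not stated, so whether reads were shared is unknown. Of the exon bases of E2f8, 610 of 5443 overlap Gm2788, which averaged 0.382 CPM. Of those of Rb1, 488 of 6015 overlap Rcbtb2 and 408 Lpar6, and of those of Rbl2, 892 of 7558 overlap Gm45464 and 693 Aktip, which averaged 40.9 CPM. The overlap of E2f5 with 1810022K09Rik is 26 of 1782 bases, and that of E2f7 with 1700020G17Rik 86 of 9009 bases. The highest of the genes overlapping Rb1 averaged 52.0 CPM, and 1810022K09Rik averaged 28.9 CPM.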

How the data were processed

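The 9 RNA-seq libraries of neural stem cells were analysed from 1 deposited table of estimated counts per Ensembl gene. Tools named in the submitters' processing notes are RSEM, STAR 2.5.0a, Trimmomatic 0.36, cutadapt and FastQC, and the build is GRCm38; annotation release, order of steps and strand setting are not stated there. All estimated counts in the authors' table were whole numbers and needed no rounding. RSEM divides reads that fit several genes by a model. Symbols, positions and exon lengths came from GENCODE M21 (54165 identifiers matched, 67 did not).

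All tests were fitted on 17602 genes passing edgeR's filterByExpr by group (99.9% of counts) in R 4.3.3 with edgeR 4.0.16 (quasi-likelihood F test, robust, TMM, Benjamini-Hochberg over all genes, threshold 0.05). SE was computed as the log2 difference over the root of F. The main model held 3 groups and no block. Alternatives were the date label as a block, DESeq2 1.42.0, limma-voom 3.58.1, other scalings, filters and subsets, and each library left out. Levels are TMM-scaled CPM; likeness used log2 CPM with a prior count of 2. Counting error is small at these depths (23212472 to 32392496 counts), though reads need not be separate molecules. The edgeR fits without a block, with the block and with the interaction were also run on simulated counts. Those counts held no shift shared by all libraries of a label, so they do not show how a lone control varies. DESeq2 and limma-voom were not run on them. No library pair of a group agreed within sampling noise (chi-square per degree of freedom at least 52.6).

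The pairing comes from the titles. Deviations from group means correlated at 0.40 to 0.63 within 30 August and at 0.46 to 0.64 within 3 September. Among undated libraries they correlated at 0.08 to 0.40, and between labels at -0.66 to 0.30. The dated libraries were taken as paired. The undated ones share only the lack of a date. Where they were used, the block, the interaction model and the ratios by label still treated them as a matched set. Members and gene lists were chosen with earlier results of these data known. Named genes were Phf2, the members, E2f6, Tfdp1, Tfdp2, up to 4 called genes per list with the smallest p in the blocked mean and in the interaction, and the 3 nearest genes of 8 members; Cdk6 was added after its value was seen.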

Additional observations from a re-analysis of the deposited data

Results flagged for a closer look

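The hairpin effect on E2f7 and on E2f8 differed between the dated sets by a test of the difference itself. For E2f7 the effect at 3 September exceeded that at 30 August by 4.64 on the log2 scale and for E2f8 by 4.25 (edgeR interaction test, adjusted p = 0.0211 and 0.0209). Neither call held without the 3 September sh902 library (adjusted p = 0.0903 and 0.0886) or without the 3 September sh900 library (0.0558 and 0.0541), and without the 30 August sh900 library E2f7 was at 0.0506. For both genes all 4 dated hairpin libraries lay between the 2 dated controls. At 3 September the hairpin libraries ran from 8.0 to 10.5 CPM over both genes, and at 30 August from 5.51 to 7.61 CPM; the controls held 1.83 and 3.09 CPM at 3 September and 33.3 and 39.8 CPM at 30 August. Each control value is a single library, and the labels do not say what the dates mark.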

How the results depend on the processing

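With each library left out in turn, with and without the replicate block, the members called ran from 0 to 5 for the mean of both hairpins, 0 to 4 for sh900 against shNT, 0 to 5 for sh902 against shNT and 0 to 1 for sh900 against sh902; in the first 3 every count above 0 came from leaving out the 30 August control with the block. Over all 18264 genes the blocked fits without that control called 3637, 2912 and 3757, in the same order of comparisons. The leave-one-out fits that gave 1 member for sh900 against sh902 called 402 to 1992 genes. The block itself gave 1 call for sh900 against sh902 and changed no other count of members in these 4 comparisons. In the interaction, members called ran from 0 to 2 with a hairpin library left out, G1/S targets from 0 to 16 and G2/M targets from 0 to 24. Calls among all genes ran from 0 to 192 in these fits. Over all genes the mean of both hairpins gave 0 calls in edgeR, 2054 with the block, 755 in DESeq2 and 8 with no filter; the interaction gave 244 calls in edgeR, 596 in DESeq2 and 772 with no filter. The interaction gave 5 members with DESeq2 and 5 with no filter on low counts, and G1/S counts of 35 and 34. It gave 2 members with limma-voom (196 genes called), 3 with RLE factors (251 genes) and 3 with library size alone (196 genes). With no filter Tfdp1 was called in the interaction (1.61, adjusted p = 0.0231). Signs changed as follows; the cause was not tested. In the mean of both hairpins, E2f1 was -0.0027 in the dated libraries with the block, and E2f7 and E2f8 were 0.27 and 0.0177 in limma-voom. In the interaction, E2f4 was 0.0352 and Rbl2 0.0621 with library size alone, 0.10 and 0.13 with no filter, and Rbl2 was 0.0039 in the dated libraries. Rbl2 with sh900 against shNT was 0.0101 with no filter. With 1 library left out, log2 ranges that crossed 0 in the mean were -0.32 to 1.69 for E2f1, -0.18 to 1.65 for E2f2, -0.31 to 0.30 for E2f3, -0.12 to 0.28 for E2f5, -1.09 to 1.49 for E2f7, -1.22 to 1.28 for E2f8, -0.17 to 0.24 for Rb1, -0.53 to 0.60 for Rbl1, -0.59 to 0.43 for Tfdp1, -0.28 to 0.20 for Tfdp2 and -1.22 to 0.64 for Cdk6. In the interaction they were -0.10 to 0.18 for E2f4, -0.16 to 0.60 for E2f5 and -0.11 to 0.22 for Rbl2, and for Rbl2 with sh900 against shNT -0.13 to 0.0373. Scaling by library size moved the median of all genes by at most 0.07. E2f4 and Rbl2 kept their sign in the mean under all 26 alternatives.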
